A study of Mus musculus with 6 samples.

Results

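The clustered protocadherins are the alpha, beta and gamma genes of 1 locus on mouse chromosome 18. Members were taken by name from the deposited expression table, as every row named Pcdha, Pcdhac, Pcdhb, Pcdhga, Pcdhgb or Pcdhgc with a number, which gave 58 of 53378 genes. They comprised 14 alpha rows, 22 beta rows and 22 gamma rows. A single name, Pcdha11, was carried by 2 rows, so there were 57 distinct names. In the mm10 build (RefSeq annotation of GRCm38.p6), the alpha genes spanned chr18:36930285-37188897, the beta genes chr18:37264998-37521419 and the gamma genes chr18:37661775-37841873.

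Clustered protocadherins are cell-surface adhesion proteins of the nervous system that bind the same isoform on a neighbouring cell and let neurites of 1 neuron recognise each other. Each alpha or gamma transcript joins a variable exon, read from its own promoter, to constant exons that all genes of that cluster share, whereas each beta gene is a separate gene whose protein is encoded in a single exon. Promoter choice is known to depend on DNA methylation, on CTCF and cohesin, and on the silencing protein Smchd1.

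RNA-seq was made from neural stem cells (NSCs) of the telencephalic cortex of E14.5 embryos, grown as floating spheres and carrying floxed alleles of Tbl1xr1, a subunit of the NCoR/SMRT corepressor complexes, on both chromosomes. Control cells received a lentivirus with GFP only (control replicates 1, 1_1 and 2), and the other cells a lentivirus with Cre and GFP (KO replicates 2, 2_2 and 3, here the libraries labelled Cre). Both groups therefore shared the floxed genotype, infection and sorting for GFP, and LoxP sites flanked exon 5. No source used here gives the promoter that drove Cre, or says whether replicates 1 and 1_1, or 2 and 2_2, were separate cultures, so the p-values measure the spread between these libraries, which may be technical.

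Reads on genes ran from 7510615 to 11161497 per control library and from 11893230 to 14828100 per library labelled Cre. Tbl1xr1 mRNA was not lower after Cre in these libraries. Normalized counts (reads divided by 1 size factor per library) of 2522, 2190 and 2721 were found in control replicates 1, 1_1 and 2, against 3774, 3463 and 2905 in Cre replicates 2, 2_2 and 3, with a log2 fold change of 0.45 (SE 0.13, adjusted p = 0.0585, limma). It passed as higher with DESeq2 (adjusted p = 0.0413) and with Cre replicate 3 left out of the limma fit (log2 fold change 0.55, adjusted p = 0.0239). The row counts reads of the whole gene, so it does not show how much of exon 5 was lost. By genotyping, RT-qPCR and Western blot, the paper reports that the sorted Cre cells lacked Tbl1xr1 mRNA and protein. Why the read counts differ from that report was not tested. Of the marker lists, the 10 neural stem genes tested included 1 lower gene (Nes) and none higher, where 4.81% of all 14806 genes tested were called higher and 5.27% lower. The astrocyte list had 5 of 10 tested genes higher and a summed level of 14997 to 16883 normalized counts in control against 22153 to 25178, while Aldh1l1 of that list had a log2 fold change of -1.65 (adjusted p = 0.0646, limma) with all Cre libraries below all control libraries. The oligodendrocyte lineage list had 3 of 7 higher, with 12905 to 14835 against 17822 to 20127. Among the 9 neuronal genes tested, Elavl4 was higher and Gap43 lower, the summed level was 17752 to 18867 against 15324 to 17323, and Stmn2 was at 0 in every library. Of the microglial, endothelial and mural, and meningeal fibroblast lists, 1 gene each could be tested and none was called. In these bulk samples a change in the number of cells of a type and a change in RNA per cell cannot be told apart, and the part of these markers in the results was not tested.

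The beta genes could be measured singly. Of the 22, 9 were higher in the libraries labelled Cre (Pcdhb2, Pcdhb3, Pcdhb4, Pcdhb5, Pcdhb8, Pcdhb10, Pcdhb12, Pcdhb14 and Pcdhb19), by 0.95 to 1.92 on the log2(normalized count + 1) scale, with adjusted p from 0.00249 to 0.0329 (limma). No beta gene was called lower by limma. The 13 with an unadjusted p under 0.05 all had a positive fold change, but the share of all genes at that level was not counted. For calls by adjusted p, the shares over all genes tested were, as above, 4.81% higher and 5.27% lower. edgeR and DESeq2 on whole reads recovered from the table each called 9 beta genes higher and 0 lower, where they called 5.11% and 5.72% of all genes higher.

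Only 19 beta genes reached the mean normalized count of 10 required for the test. Pcdhb3, Pcdhb8 and Pcdhb9 reached it through the libraries labelled Cre, their control means being under 10. All of these had an unadjusted p under 0.05 (limma), and the filter favoured a positive sign for them. With no filter all 22 were tested and 8 were called, Pcdhb3 being lost, against 2.53% of all genes. The median log2 fold change over the 22 was then 0.75, against 0.02 over all 27551 genes.

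**Figure D1:**
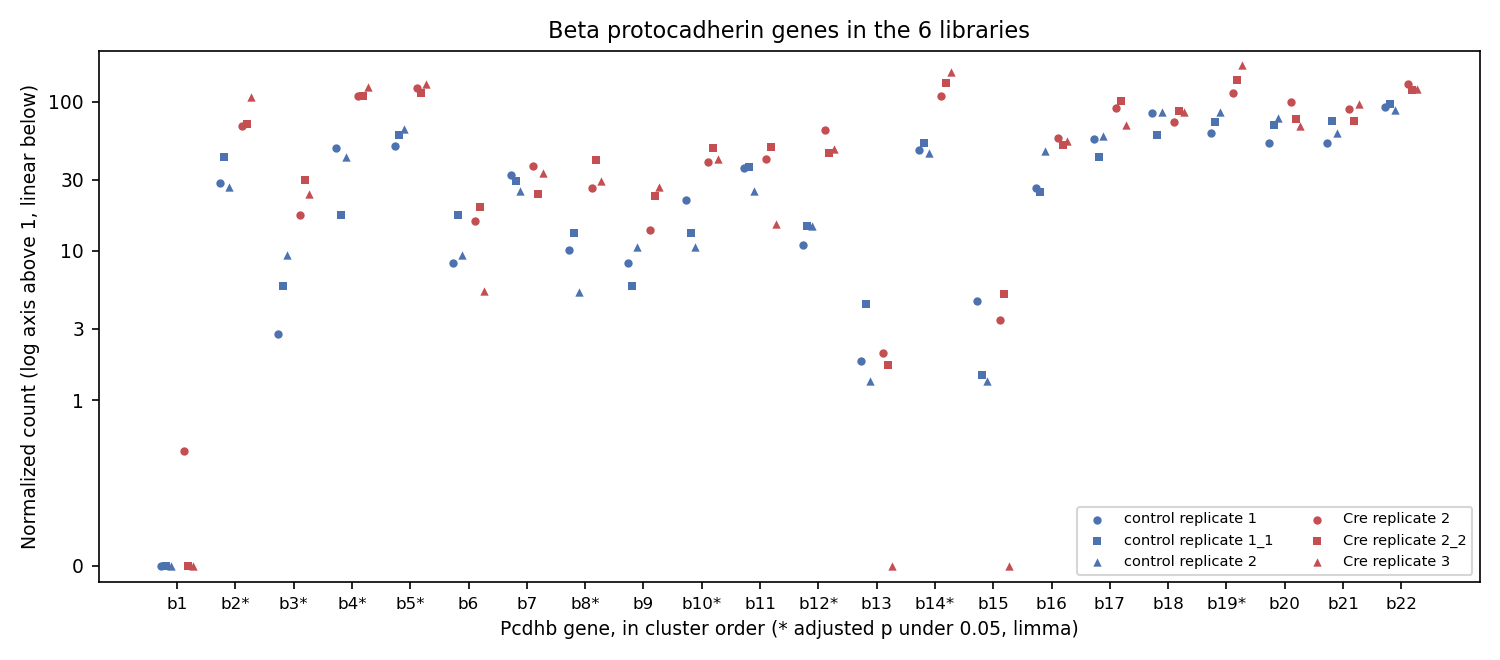
Normalized count (vertical axis, logarithmic above 1 and linear below) of each of the 22 beta genes in cluster order (horizontal axis), with 1 point per library, control in blue and Cre in red. For every gene marked with an asterisk (adjusted p under 0.05) all 3 Cre libraries lie above all 3 control libraries, and Pcdhb1, Pcdhb13 and Pcdhb15 lie near 0.

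The strongest evidence by adjusted p was for Pcdhb14. It had 47.7, 52.7 and 45.3 normalized counts in control replicates 1, 1_1 and 2, against 109, 133 and 158 in Cre replicates 2, 2_2 and 3. The log2 fold change was 1.43 (SE 0.22, adjusted p = 0.00249, limma). All 3 Cre libraries stood above all 3 control libraries, and Cre replicate 3 was the highest. Every Cre library was deeper than every control library. The pair nearest in depth, control replicate 1 and Cre replicate 3, had 11161497 and 11893230 reads in all and 52 and 177 on Pcdhb14. These values cover 1 gene and 1 library per group. Depth and group cannot be told apart in this design, and the part of depth was not tested.

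Pcdhb12 rose from a low level. Its normalized counts were 11.01, 14.6 and 14.7 in control and 65.1, 45.6 and 48.4 in the libraries labelled Cre, with a log2 fold change of 1.90 (SE 0.31, adjusted p = 0.00396, limma). Here Cre replicate 2 was the highest. Pcdhb12 had the least distinct sequence of the 21 beta genes found among the GENCODE M1 coding transcripts. Of its 50-base windows, 88.0% were absent from the coding transcripts of every other gene. How reads common to relatives were counted is not given in the sources used here.

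Pcdhb2 to Pcdhb5, neighbours near the start of the cluster, were all called. Pcdhb5 had 50.5, 60.0 and 65.3 normalized counts in control and 124, 115 and 131 in the libraries labelled Cre (log2 fold change 1.07, SE 0.20, adjusted p = 0.00769, limma). Pcdhb4 had 48.6, 17.6 and 42.7 against 110, 110 and 126 (log2 fold change 1.76, SE 0.34, adjusted p = 0.00866, limma). Control replicate 1_1, the shallowest library, had the low Pcdhb4 value, on 12 reads, and the groups stayed apart without it.

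Pcdhb2 had 28.4, 42.4 and 26.7 normalized counts in control and 69.3, 71.5 and 107 in the libraries labelled Cre (log2 fold change 1.32, SE 0.28, adjusted p = 0.0144, limma). Pcdhb3 had 2.75, 5.85 and 9.34 against 17.3, 30.1 and 24.2 (log2 fold change 1.92, SE 0.50, adjusted p = 0.0329, limma). The control values of Pcdhb3 rest on 3, 4 and 7 reads, which makes its fold change the least certain of the 9.

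Further along the cluster, Pcdhb8 and Pcdhb10 were also low in control. Pcdhb8 had 10.1, 13.2 and 5.33 normalized counts in control and 26.3, 40.5 and 29.5 in the libraries labelled Cre (log2 fold change 1.71, SE 0.42, adjusted p = 0.0261, limma). Pcdhb10 had 22.02, 13.2 and 10.7 against 39.5, 49.1 and 41.2 (log2 fold change 1.497, SE 0.35, adjusted p = 0.0211, limma). Neither gene had a control library within the range of the libraries labelled Cre. Pcdhb19, the only called gene past Pcdhb14, had 61.5, 73.1 and 85.4 against 115, 139 and 177 (log2 fold change 0.95, SE 0.22, adjusted p = 0.0216, limma), again with Cre replicate 3 the highest.

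The calls differed in how firmly they stood. Pcdhb4, Pcdhb5, Pcdhb12 and Pcdhb14 passed with any 1 of the 6 libraries left out, and the other 5 did not. Leaving out control replicate 1 or Cre replicate 2_2 left 5 calls, and counting control replicates 1 and 1_1 as 1 sample left 6. Fewer genes were called higher over the whole table too, 313, 329 and 355 in those fits against 712 in the main fit.

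Of the 10 beta genes tested and not called, 5 still had all Cre libraries above all control libraries. Pcdhb9 had log2 fold change 1.25 (95% interval 0.29 to 2.22, adjusted p = 0.0982, limma), Pcdhb16 had 0.77 (0.12 to 1.42, adjusted p = 0.130) and Pcdhb17 had 0.72 (0.20 to 1.25, adjusted p = 0.0826). Pcdhb21 and Pcdhb22 had smaller differences, 0.47 (-0.03 to 0.96) and 0.42 (0.03 to 0.82). Of the 16 genes whose control mean was itself at least 10, 11 had groups that did not overlap, all with Cre above, where 14.8% of all genes tested had Cre above and 15.6% had Cre below, 30.3% together. Of these 16, 7 were called, where 4.81% of all genes tested were called higher. The median log2 fold change over all 16, called or not, was 0.75, against -0.0021 over all genes tested.

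The other 5 tested genes had overlapping groups. Their log2 fold changes were 0.11 for Pcdhb6 (95% interval -1.08 to 1.31), 0.11 for Pcdhb7 (-0.56 to 0.77), -0.02 for Pcdhb11 (-0.94 to 0.90), 0.11 for Pcdhb18 (-0.37 to 0.60) and 0.28 for Pcdhb20 (-0.24 to 0.81). The interval of Pcdhb6 takes in the value found for Pcdhb5 (1.07), and the intervals of the other 4 end below it. Pcdhb11 had 41.6 and 49.9 normalized counts in Cre replicates 2 and 2_2 but 15.2 in Cre replicate 3, with 35.8, 36.6 and 25.3 in control, and Pcdhb6 was likewise lowest in Cre replicate 3. Cre replicate 3 was thus the lowest library for these genes. Among the tested genes it was the highest for Pcdhb2, Pcdhb4, Pcdhb5, Pcdhb14 and Pcdhb19, and for the uncalled Pcdhb9 and Pcdhb21.

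Pcdhb1, Pcdhb13 and Pcdhb15 were hardly detected. Pcdhb1 had 1 read, in Cre replicate 2, and no more than 6 reads per library fell on Pcdhb13 or Pcdhb15. No difference was detectable for them at this depth.

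**Figure D2:**
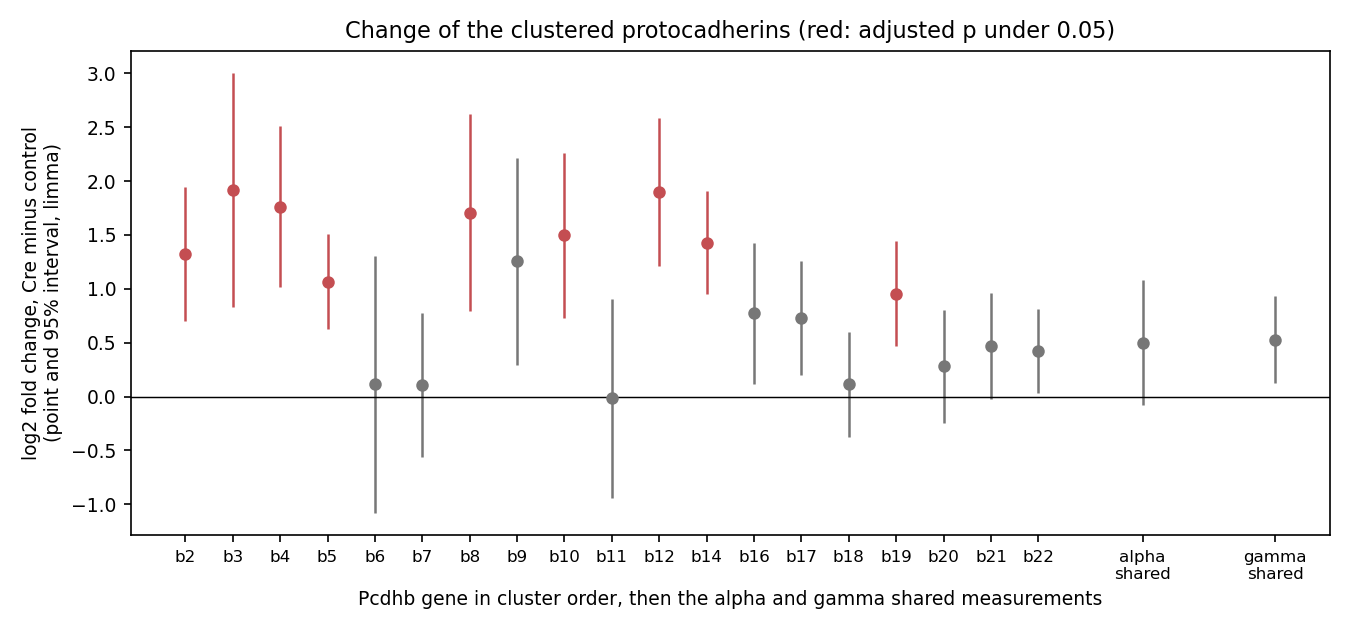
Log2 fold change of Cre over control (vertical axis, point and 95% interval from limma) for the 19 tested beta genes in cluster order and for the alpha and gamma shared measurements, with red marking an adjusted p under 0.05. The 9 red points run from 0.95 to 1.92, and the last genes of the cluster, Pcdhb20 to Pcdhb22, lie between 0.28 and 0.47.

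By position, 8 of the 12 tested genes from Pcdhb2 to Pcdhb14 were called (median log2 fold change 1.37) and 1 of the 7 from Pcdhb16 to Pcdhb22 (median 0.47). The first stretch was not even, with 4 of 4 called from Pcdhb2 to Pcdhb5, 1 of 4 from Pcdhb6 to Pcdhb9 (median 0.68) and 3 of 4 from Pcdhb10 to Pcdhb14. Pcdhb3, Pcdhb8 and Pcdhb9 passed the filter through their Cre values, which favoured a positive sign for them. Pcdhb3 is among the 4 of 4, and Pcdhb8 is the only call from Pcdhb6 to Pcdhb9. The medians of 1.37 and 0.68 include genes passed in this way. Without these genes the first stretch held 6 calls among 9 genes, where 4.81% of all genes tested were called higher. The numbers follow the order of the genes on the chromosome. Whether these stretches differ was not tested. Called genes had control means of 5.98 to 73.3 normalized counts (median 32.5) and uncalled ones of 8.26 to 92.4 (median 42.5). Distinct sequence made up 88.0% to 97.9% of windows in called genes and 88.6% to 98.1% in the 9 uncalled genes with a transcript to search. Their part in the calls was not tested.

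As a description only, since they were picked by this same contrast, the 9 called genes held 38.3%, 38.7% and 38.4% of the summed beta level in control replicates 1, 1_1 and 2, against 50.7%, 53.7% and 59.3% in Cre replicates 2, 2_2 and 3. Per kilobase of the RefSeq gene model, Pcdhb22 was the most abundant beta gene in both groups, at 28.7 to 31.5 normalized counts in control and 39.0 to 42.7 in the libraries labelled Cre. In control it stood clear of the next gene, Pcdhb21 (19.6 to 27.5), whose range overlapped that of Pcdhb20 (15.7 to 22.8). In the libraries labelled Cre, Pcdhb14 moved from rank 8 to rank 2, with a range of 31.6 to 46.1 that took in that of Pcdhb22.

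Summed over all 22 genes, the beta level was 739, 756 and 796 normalized counts in control and 1332, 1370 and 1422 in the libraries labelled Cre. This gave a mean of 764 ± 29.4 (SD, n = 3) in control against 1374 ± 45.2 (SD, n = 3). The log2 difference was 0.85, with p = 0.1 in a two-sided exact permutation test, the smallest p that 3 against 3 libraries can give.

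The alpha and gamma rows did not measure single genes. Within every library the 14 alpha rows lay within 8.51% of their median row and the 22 gamma rows within 4.17% of theirs, or within 3 reads, and the genes of each cluster share their constant exons. Each cluster was therefore tested as 1 measurement, the median of its rows.

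The alpha measurement was 42.2, 60.0 and 62.7 normalized counts in control replicates 1, 1_1 and 2, against 75.5, 101 and 60.0 in Cre replicates 2, 2_2 and 3. The groups overlapped, with Cre replicate 3 level with control replicate 1_1, and the log2 fold change of 0.50 (95% interval -0.08 to 1.08) had an adjusted p = 0.270 (limma). The gamma measurement was 3746, 2824 and 3373 in control and 6161, 4880 and 3568 in the libraries labelled Cre. Here too Cre replicate 3 lay inside the control range, and the log2 fold change of 0.53 (95% interval 0.12 to 0.94) had an adjusted p = 0.0982 (limma). The gamma call depended on the setting, since the adjusted p was 0.0407 with DESeq2 and 0.0134, with a log2 fold change of 0.74, when Cre replicate 3 was left out of the limma fit.

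**Figure D3:**
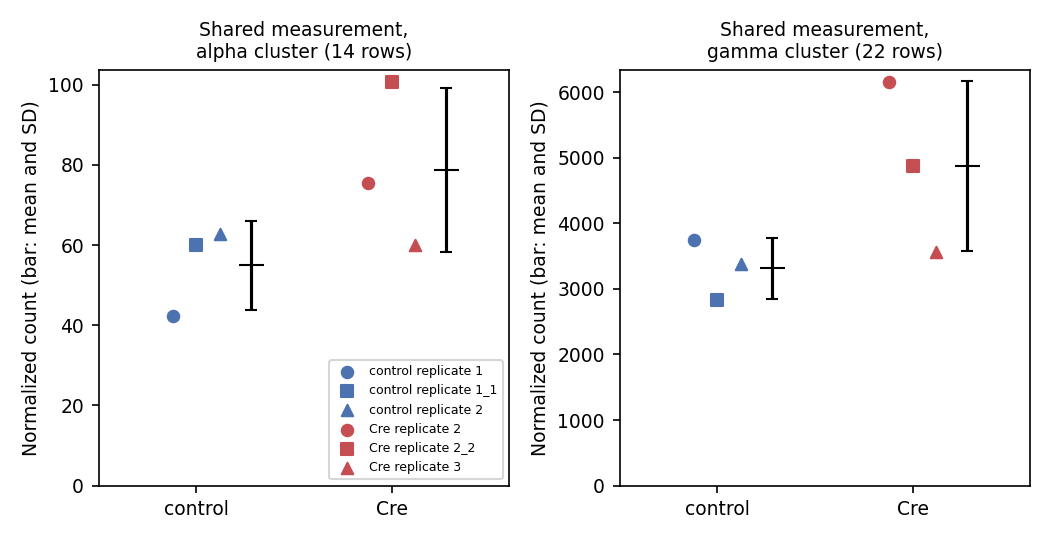
Normalized count (vertical axes, from 0) of the alpha shared measurement (left) and the gamma shared measurement (right) in each control and Cre library, with a bar for the mean and SD of each group. In both panels Cre replicates 2 and 2_2 lie above all control libraries and Cre replicate 3 lies inside the control range.

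The beta level did not separate from the gamma level as a ratio. The summed beta level was 19.7%, 26.8% and 23.6% of the gamma measurement in control and 21.6%, 28.1% and 39.9% in the libraries labelled Cre (log2 difference 0.32, two-sided exact permutation p = 0.4).

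A small part of the gamma reads differed between rows. In each library the reads of a gamma row beyond those of the lowest gamma row must lie outside the sequence it shares with that row. This excess, a lower bound on such reads, was taken as a signal of the row. Whether the excess was also shared with other gamma rows could not be checked, since the read counter and annotation are not given. Summed over the 22 rows it was 363, 247 and 209 reads in control and 759, 619 and 685 in the libraries labelled Cre, or 7.65% to 11.4% and 7.87% to 14.7% of the lowest row plus excess. This measure was chosen after the rows had been seen to be near-identical, and was tested by adding the 22 excess rows to the fit of the whole table.

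Pcdhga5 and Pcdhga1, both of the A subfamily, rose on this measure. Pcdhga5 (ENSMUSG00000103567) had 13, 7 and 7 excess reads in control replicates 1, 1_1 and 2, against 129, 106 and 170 in Cre replicates 2, 2_2 and 3, which as normalized counts were 10.5 ± 1.32 and 111 ± 35.8 (SD, n = 3 each). Its log2 fold change was 3.24 (SE 0.31, adjusted p = 0.000127, limma). Pcdhga1 (ENSMUSG00000103144), the first gene of the gamma cluster, had 14, 5 and 4 excess reads in control and 67, 115 and 72 in the libraries labelled Cre, with a log2 fold change of 2.91 (SE 0.41, adjusted p = 0.00154, limma). Its control mean of 8.50 normalized counts was under the filter, which it passed through the libraries labelled Cre. With no filter its adjusted p was 0.000551 and that of Pcdhga5 1.66e-05, where 2.54% of all features were called higher.

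The lowest Cre library stood well above the highest control library for both. With the excess set against the lowest gamma row, Pcdhga5 came to 0.319%, 0.364% and 0.277% in control and 1.45%, 1.87% and 4.28% in the libraries labelled Cre. The corresponding values for Pcdhga1 were 0.344%, 0.26% and 0.159% against 0.755%, 2.03% and 1.81%. Both were called in each of the 12 other settings run, edgeR, DESeq2 and every omission of 1 library included. The size depended on the baseline, since with the excess taken over the median gamma row the log2 fold change was 5.41 for Pcdhga5 and 5.04 for Pcdhga1. Over all features, 4.83% were called higher in the fit with the excess over the lowest row, and 714 of 14813 in that over the median row.

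No other gamma row passed in the filtered fit. Of 10 rows whose excess reached a mean of 10 normalized counts, 8 did not pass, with log2 fold changes of -0.25 (Pcdhga3) to 1.04 (Pcdhgb5) and a lowest adjusted p of 0.176. Over the median row Pcdhgb5 had 2.06 (adjusted p = 0.180, limma). The largest excess in control belonged to Pcdhgc3, a C-type isoform, with 98, 87 and 44 reads against 179, 108 and 151, a log2 fold change of 0.40 (95% interval -0.21 to 1.01, adjusted p = 0.408, limma). Its C-type relatives Pcdhgc4 and Pcdhgc5 had 0.56 (0.02 to 1.09) and 0.53 (-0.32 to 1.39).

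Pcdhga7 went the other way, with 24, 9 and 10 excess reads in control and 4, 0 and 6 in the libraries labelled Cre. In Cre replicate 2_2 it tied with Pcdhgb1 and Pcdhga4 as the lowest gamma row, so its 0 there was set by the baseline. That 0 entered every fit in which Pcdhga7 was called. Pcdhga7 fell short of the filter when all 6 libraries were used. With no filter it was called lower (log2 fold change -2.53, SE 0.72, adjusted p = 0.0469, limma), where 2.75% of all features were called lower. It was also called with Cre replicate 2 or Cre replicate 3 left out, where 1220 of 14815 and 758 of 14803 features were called lower. In those fits it passed the filter through its control values (mean 16.2, against 2.71 in the libraries labelled Cre), so they add no support. The alpha rows had almost no excess, with none in any library for 9 of 14 rows and at most 6 reads in 1 library for the others, so single alpha genes could not be told apart.

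**Figure D4:**
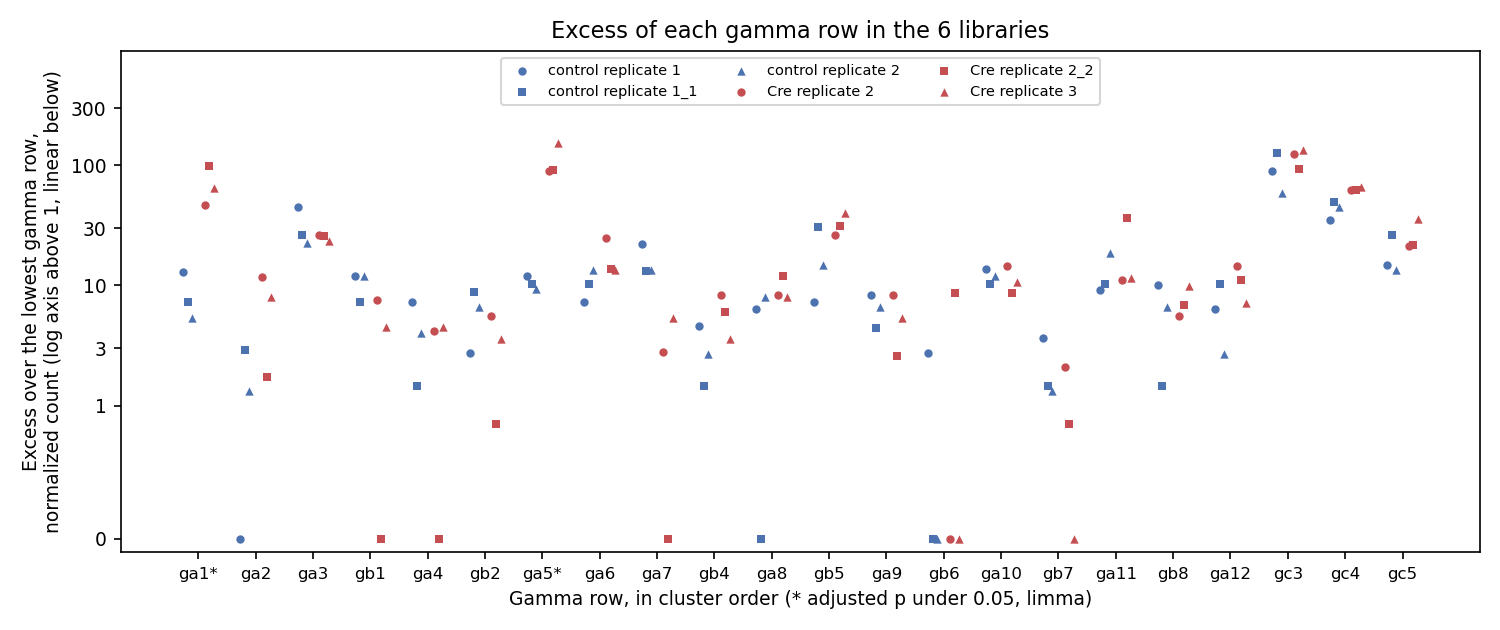
Excess of each gamma row over the lowest gamma row of the same library (vertical axis, normalized count, logarithmic above 1 and linear below), with the 22 rows in cluster order on the horizontal axis and 1 point per library. Pcdhga1 and Pcdhga5, marked with an asterisk (adjusted p under 0.05), have all 3 Cre libraries far above the control libraries, from 46.4 to 152 against at most 12.8.

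Genes outside but beside the clusters were examined next. Of 18 flanking genes 15 were tested and none was called by limma, edgeR or DESeq2, where limma called 10.1% of all genes in either direction. Their median log2 fold change was -0.08. An unadjusted p under 0.05 (limma) was found for 3, a level not counted over all genes. Taf7, a subunit of the basal transcription factor TFIID whose gene lies between the beta and gamma genes, had a log2 fold change of 0.19 (SE 0.22, adjusted p = 0.649, limma). Diaph1, a formin beyond the gamma genes, had 0.04 (SE 0.16, adjusted p = 0.912), and Hdac3, the deacetylase of the NCoR/SMRT complexes, which lies next to it, had -0.05 (SE 0.17, adjusted p = 0.892).

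Of 27 genes for proteins known to act on the clusters, 3 were lower and none was higher, where 5.27% of all genes were called lower. Dnmt1, the maintenance DNA methyltransferase, had 3358, 3746 and 3786 normalized counts in control and 2410, 2174 and 2201 in the libraries labelled Cre (log2 fold change -0.68, SE 0.11, adjusted p = 0.00381, limma). Trim28, a corepressor that recruits histone methyltransferases, had -0.53 (SE 0.12, adjusted p = 0.0150), and Setdb1, a histone H3 lysine 9 methyltransferase of that pathway, had -0.48 (SE 0.13, adjusted p = 0.0407). All Cre libraries lay under all control libraries for these 3 genes.

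The architectural factor Ctcf had normalized counts of 4320, 5263 and 5301 in control and 3583, 4917 and 6157 in the libraries labelled Cre, with overlapping groups (log2 fold change -0.05, SE 0.18, adjusted p = 0.892, limma). Smchd1 had -0.24 (SE 0.12, adjusted p = 0.253). Over the list the median log2 fold change was -0.06, close to -0.0021 over all genes. The Dnmt1 call held in all 17 alternatives, that of Trim28 in 14 and that of Setdb1 in 10.

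Among 19 genes for proteins that bind or process clustered protocadherins, 18 were tested and 2 were called, both higher, against 4.81% of all genes. Nlgn1, the synaptic adhesion protein neuroligin-1, had 284, 290 and 271 normalized counts in control and 457, 482 and 570 in the libraries labelled Cre (log2 fold change 0.83, SE 0.14, adjusted p = 0.00404, limma). Cyfip2, a subunit of the WAVE actin regulatory complex, had 106 to 135 against 201 to 233 (log2 fold change 0.84, SE 0.17, adjusted p = 0.0107, limma). The groups did not overlap for either gene. The median over the list was 0.15. The number of calls over both lists, 5, was 2 without control replicate 1, 3 without control replicate 2 and 8 without Cre replicate 2. Calls over all genes moved the same way, from 1493 to 563, 648 and 2405 in those fits.

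**Figure D5:**
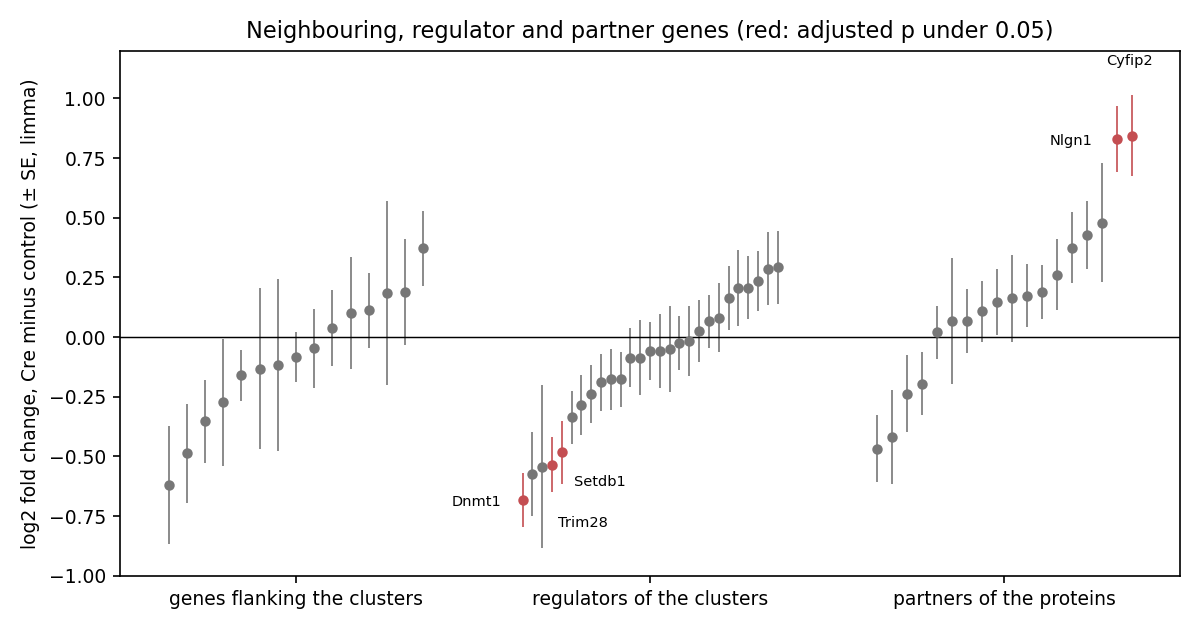
Log2 fold change of Cre over control (vertical axis, point and SE from limma) for the tested genes flanking the clusters, regulating them or partnering their proteins, sorted within each list, with red marking an adjusted p under 0.05. Dnmt1, Trim28 and Setdb1 lie between -0.68 and -0.48, Nlgn1 and Cyfip2 near 0.83, and no flanking gene is red.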

How the data were processed

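RNA-seq libraries of NSCs (3 control, 3 labelled Cre) had been prepared by the authors with a kit that does not mark strand. The submitters' processing notes name STAR 2.7, DESeq2 and mm10, whereas the methods name TopHat with mm9 and mm10. The read counter, strand setting and annotation are not given in the sources used here. The values the authors deposited are normalized counts, a signal per gene obtained by dividing reads by a library's size factor. Columns of the authors' own comparison (deposited log2 fold changes, test scores and p-values) were not used. No per-sample column was left unused (0).

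The reads were recovered from the value of 1 read in each library, with 100% of values within 0.001 of a whole number. Of 53379 rows 873 have no gene name, and 1 with a missing value was left out. Alpha and gamma rows were replaced by their median, 1 row per cluster. limma 3.58.1 (R 4.3.3, eBayes with trend) was run on log2(normalized count + 1) for genes with a mean of at least 10, with Benjamini-Hochberg adjustment over all genes and a threshold of 0.05, which understates changes of low genes. Scripts were tested on simulated data. Sums and ratios per library were compared by exact permutation (scipy). Alternatives were edgeR 4.0.16, DESeq2 1.42.0, pseudocounts of 0.5 and 5, no filter, a mean of at least 50, TMM and total scaling, the table as deposited, averaging replicates 1 and 1_1 or 2 and 2_2, and leaving out each library. The excess rows were added after the data were seen. The members, gene lists and tests were chosen with earlier results of these data known. Every beta gene is described, with Tbl1xr1, Hdac3, Taf7, Diaph1, Ctcf, Smchd1 and every flanking, regulator or partner gene past the threshold. Distinct sequence is the share of 50-base windows found in no coding transcript of another gene in GENCODE M1. Other sequence was not searched.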

Additional observations from a re-analysis of the deposited data

How the results depend on the processing

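No paired analysis was possible because the groups share a single replicate number, 2. The number of beta genes called higher was 5 with a mean of at least 50, which tests fewer genes, and 5 to 9 with 1 library left out. Over all genes 712 were called higher in the main fit, against 613 and 313 to 1186 in those settings. No beta gene was called lower in any of the 17 alternatives. Where it was recomputed, the summed beta difference stayed between 0.82 and 0.88 and the alpha difference between 0.31 and 0.68, not called. The gamma measurement passed with DESeq2 (0.56) and without Cre replicate 3 (0.74), with 0.34 to 0.74 over single omissions. Calls among regulators and partners numbered 5, but 3 with control replicates 1 and 1_1 averaged and 2 to 8 with 1 library left out. Calls over all genes numbered 1493, but 665 with those controls averaged and 563 to 2405 with 1 library left out. No flanking gene was called.

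Uncalled genes near 0 changed sign. Pcdhb11 was 0.14 with edgeR, 0.13 with DESeq2, 0.0025 with a pseudocount of 5 and 0.066 with controls averaged (single omissions -0.34 to 0.49). With Cre replicates 2 and 2_2 averaged, Pcdhb6 was -0.14, Ctcf 0.050 and Diaph1 -0.026, and with controls averaged Hdac3 was 0.020. Over single omissions Pcdhb6 ranged from -0.22 to 0.63, Pcdhb7 from -0.025 to 0.28, Pcdhb18 from -0.049 to 0.20, Ctcf from -0.24 to 0.16, Diaph1 from -0.068 to 0.17, Hdac3 from -0.18 to 0.041, and the excess of Pcdhga3 from -0.44 to 0.038, of Pcdhga10 from -0.28 to 0.064 and of Pcdhga11 from -0.085 to 0.74. The cause was not tested. Fewer than 10 reads in at least 1 library limit Pcdhb3, Pcdhb6, Pcdhb8, Pcdhb9 and Pcdhb10 among the tested beta genes, and most gamma excess rows.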
